A study of Mus musculus with 6 samples.

Results

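The genes Akt1, Akt2, Tsc1, Tsc2, Mtor, Rptor, Rictor and Rheb, which form the trunk of the Akt, TSC and mTOR pathway, were examined in whole mouse embryos exposed to maternal diabetes. All probe sets on the array that the platform's table assigned to exactly 1 gene symbol were kept when that symbol was one of these 8 genes, which gave 23 of the 45101 probe sets, for 8 of 18194 genes. Exposed embryos came from FVB dams, 7 to 9 weeks old, made diabetic before mating with 2 injections of streptozotocin at 100 mg/kg, a toxin of the insulin-producing cells, and dams had blood glucose above 250 mg/dl. Control embryos came from FVB dams with normal pregnancies. Embryos of both groups were taken at day 10.5 of gestation, and the study's methods state that malformed embryos were not used. Each group had 3 pools of 3 whole embryos, each embryo of a pool from a different pregnancy, and RNA of each pool was read on 1 array, of the Affymetrix Mouse 430 2.0 type. Because each array read a pool of whole embryos, differences between single embryos and between tissues could not be seen, and fewer cells of a type cannot be told apart from less RNA per cell.

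Insulin and related growth factors activate PI3-kinase, which brings the kinase Akt to the membrane and switches it on. Akt phosphorylates TSC2, which together with TSC1 forms a complex that keeps the small GTPase RHEB in its inactive state, and active RHEB turns on the kinase mTOR. mTOR works in a complex with RAPTOR, the product of Rptor, that controls protein synthesis and autophagy, and in another with RICTOR that phosphorylates Akt. In the mouse embryo the pathway is required for growth during gestation. Its activity is set largely by phosphorylation, which an array does not measure, so all values below are transcript signals.

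Of the 8 genes, 5 had a lower signal in diabetes-exposed pools, namely both Akt kinases, Tsc2, Mtor and Rptor, and 2 had a higher signal, namely Rictor and Rheb. Tsc2 fell by 2.46 on the log2 scale and Rheb rose by 0.48, while the fall of Tsc1 did not pass the test (adjusted p = 0.055). These calls rest on the tested probe set of each gene with the highest mean log2 signal over the 6 arrays, and a call needs an adjusted p under 0.05 in limma, adjusted by Benjamini-Hochberg over the whole set of tested probe sets. Among all 13956 genes read in the same manner, 19.9% fell and 17.6% rose. Over the probe sets of the 8 genes, 18 passed the filter on dim signals, of which 7 fell, 3 rose and 8 did not pass. Of the 7, 1 dim probe set of Akt2 passed the filter through its control signals alone. Over all 30025 tested probe sets 21.8% fell and 14.4% rose, so a call was common on these arrays. At least 2-fold lower were 4 probe sets of the 8 genes, the dim one of Akt2 included, against a background of 11.0%, and 0 were at least 2-fold higher in the same limma fit, against a background of 1.24%. In 8 of the 18 all exposed pools lay below all control pools (28.0% of all tested probe sets), and in 3 all lay above (21.9%). The median change was -0.24 over the 18 probe sets and -0.05 over all tested probe sets, on the log2 scale. The other 5 probe sets, of Akt1, Rptor and Rictor, had signals between 1.4 and 43.8, were not tested, and overlapped between the groups.

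**Figure D1:**
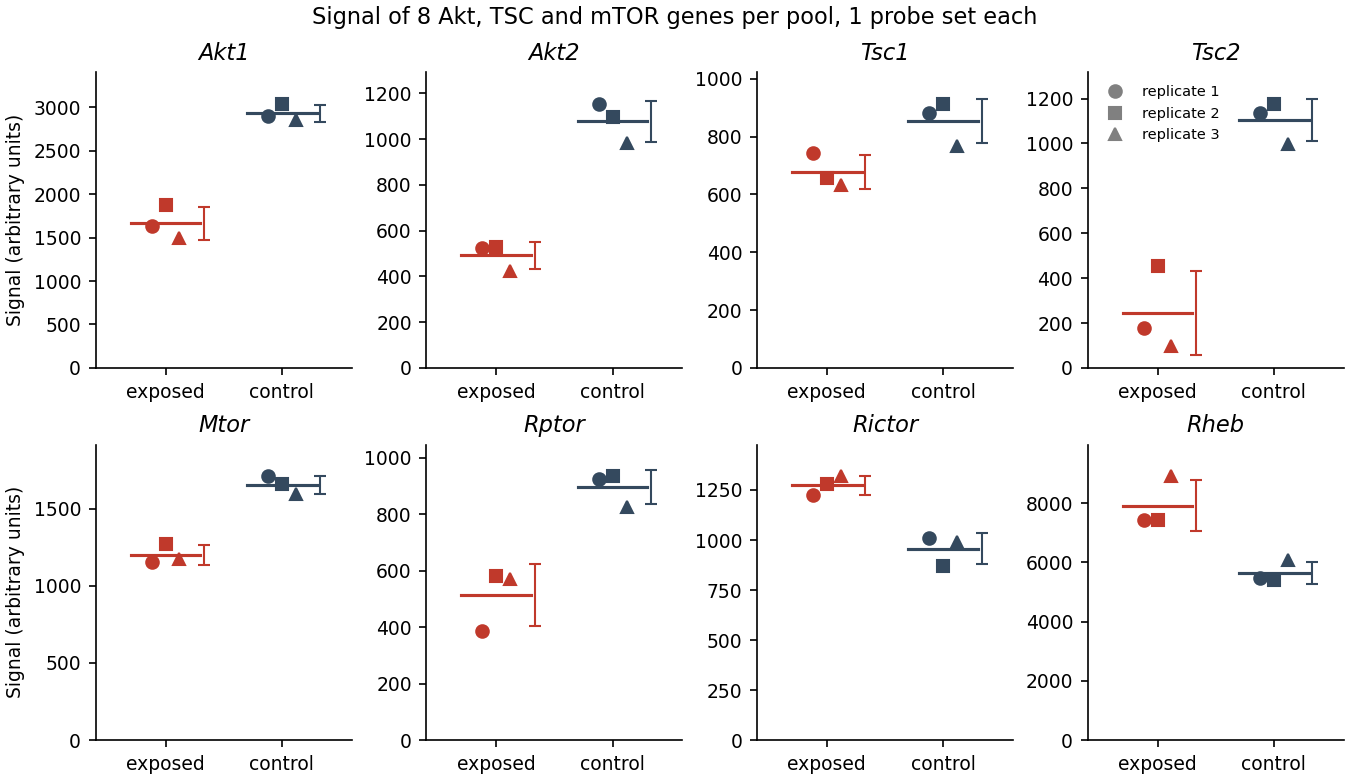
Signal (linear scale, arbitrary units, vertical axis from 0) of the 8 genes in each pool at 1 probe set per gene, diabetes-exposed pools on the left and control pools on the right. Horizontal lines are group means and brackets show 1 SD to each side (n = 3 pools). The exposed points lie below all control points for Akt1, Akt2, Tsc1, Tsc2, Mtor and Rptor, and above them for Rictor and Rheb.

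The exposed and control arrays also differed in a measure of technical quality that is not about any embryonic gene. For the poly-A control probe sets on the array, which read transcripts that the embryos do not make, the signal of the 3' part divided by that of the middle part was 3.47 to 7.00 on the exposed arrays and 2.07 to 2.52 on the control arrays. For beta-actin the ratio of 3' to 5' signal was 3.095 to 10.3 on the exposed and 1.71 to 2.19 on the control arrays. For Gapdh this ratio was 0.97 to 1.84 on the exposed and 0.82 to 0.92 on the control arrays, with exposed pool 2 close to the controls. Exposed pools 1 and 3 were highest by all of these measures. The median signal of an array was 74.1 to 78.9 in the exposed group and 82.5 to 103.3 in the control group, at the same trimmed mean. When the poly-A ratio was added to the limma fit as a covariate, 0 of the 18 probe sets fell and 0 rose after adjustment, with 2 lower and 0 higher at an unadjusted p under 0.05. The ratio separated the groups, so its part and that of exposure cannot be told apart here. For Tsc2 the change was -0.13 in place of -2.46 while its SE was 0.38 in place of 0.45, and for Rictor the change was 0.38 in place of 0.42 while its SE was 0.20 in place of 0.10. A second value that moved with the groups was the signal of Prl8a2, a decidual prolactin. The summed signal of 7 decidua and placenta markers was 72.3 to 84.1 in exposed pools and 5740 to 6548 in control pools, and Prl8a2 made up nearly everything in the controls. Without Prl8a2 the sum was 39.6 to 45.1 in exposed and 25.3 to 41.5 in control pools. All 6 other markers, the placental marker Tpbpa among them, were too dim to test. The markers fixed for whole embryos were all 8 above the filter in the pools, with 2 that fell (Sox2 and Pax6) and 2 that rose (Myl7 and Afp). The part of the decidual signal in the results below was not tested.

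The upstream sequences of Akt1, Tsc2 and Rheb were set side by side because these 3 genes stand at successive steps of the pathway and did not move in the same direction. The 250 bases before the transcription start were taken from RefSeq (build GRCm38.p6), in which all 8 genes were found, with 12 starts between them. The sequences were searched on both strands for GTAAACA, a core bound by FOXO factors, for ACGTG, a core bound by hypoxia-inducible factors, and for CACGTG, the palindromic E-box, each copy of which also holds ACGTG on both strands. Capitals mark the motif that was found, and the strand is that of the gene.
Akt1, chr12:112674885-112675134, minus strand: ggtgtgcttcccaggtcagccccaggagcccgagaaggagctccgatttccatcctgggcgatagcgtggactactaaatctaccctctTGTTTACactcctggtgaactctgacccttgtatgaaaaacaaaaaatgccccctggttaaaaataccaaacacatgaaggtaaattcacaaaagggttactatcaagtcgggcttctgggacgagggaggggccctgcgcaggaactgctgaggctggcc
Tsc2, chr17:24632628-24632877, minus strand: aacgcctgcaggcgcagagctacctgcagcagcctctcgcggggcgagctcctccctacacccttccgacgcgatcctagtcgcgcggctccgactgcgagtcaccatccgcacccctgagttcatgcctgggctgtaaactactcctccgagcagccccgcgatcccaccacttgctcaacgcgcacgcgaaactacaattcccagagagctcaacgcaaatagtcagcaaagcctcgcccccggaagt
Rheb, chr5:24842362-24842611, minus strand: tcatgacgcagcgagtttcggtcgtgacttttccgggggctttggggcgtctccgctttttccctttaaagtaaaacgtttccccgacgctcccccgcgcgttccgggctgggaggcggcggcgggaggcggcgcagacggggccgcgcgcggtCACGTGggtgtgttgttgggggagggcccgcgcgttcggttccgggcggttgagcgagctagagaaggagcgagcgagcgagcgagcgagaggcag
The Akt1 stretch, the upstream of the pair of Akt1 starts in the table, held TGTTTAC, which is GTAAACA read on the other strand. The Rheb stretch held 1 CACGTG, and none of these letter strings was in the Tsc2 stretch. Over the 12 starts, GTAAACA was found at 1, ACGTG at 3 (of Akt2, Rptor and Rheb) and CACGTG at 1. Of all 32851 mouse upstream stretches of the same length, 3.17% held GTAAACA, 16.6% held ACGTG and 6.02% held CACGTG. A match is a string of letters and shows no binding.

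Both Akt kinases fell. AKT1 is the broadly expressed form of the kinase and is needed for growth of the embryo and placenta. The first probe set of Akt1 (1416657_at) had signals of 1630.7, 1871.3 and 1494.0 in exposed pools, against 2905.5, 3039.6 and 2851.2 in control pools. All 3 exposed pools were well below all 3 control pools. The mean signal was 1665 ± 191 in exposed and 2932 ± 97.0 in control pools (SD, n = 3 each). The log2 change was -0.82 (SE 0.10, 95% interval -1.05 to -0.59, limma adjusted p = 8.6e-04). With the poly-A ratio as a covariate the change was -0.47 (adjusted p = 0.18).

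AKT2 is the form of the kinase most closely tied to insulin-stimulated glucose uptake in muscle and fat. Its first probe set (1424480_s_at) had signals of 522.4, 530.2 and 424.4 in exposed pools and 1153.3, 1096.6 and 981.0 in control pools. The lowest control pool was thus well above the highest exposed pool. The means were 492.3 ± 59.0 in exposed and 1077 ± 87.8 in control pools (SD, n = 3 each), with a log2 change of -1.13 (SE 0.13, limma adjusted p = 6.4e-04). The suffix of this probe set marks probes that may bind transcripts of more than 1 gene, so its signal may not come from Akt2 alone. At the brightest Akt2 probe set without such a suffix (1455703_at), the exposed pools had 102.0, 87.6 and 81.8 and the control pools 81.5, 105.4 and 111.1. This probe set was far dimmer than the first, and the groups overlapped there, with a log2 change of -0.13 (adjusted p = 0.72). With the poly-A ratio as a covariate the first probe set changed by -0.83 (adjusted p = 0.15).

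Other probe sets of the Akt genes differed from the first in size. At a further Akt1 probe set (1425711_a_at) the exposed pools had signals of 46.0, 170.0 and 9.3, against 1268.2, 1181.1 and 420.8 in control pools. The exposed pools were spread over a wide range but did not reach the lowest control pool. The signal fell by 4.36 on the log2 scale (SE 0.91, limma adjusted p = 0.0066), and with the poly-A ratio as a covariate the change was 0.09 (adjusted p = 0.98). The third tested Akt1 probe set (1440950_at) was far dimmer than the first. Its exposed signals of 97.9, 61.7 and 89.2 overlapped the control signals of 110.2, 69.3 and 89.5 (adjusted p = 0.80). A dim Akt2 probe set (1421324_a_at) read 16.8, 12.9 and 13.0 in exposed pools and 330.2, 244.5 and 52.4 in control pools. All exposed values there lay under 26.7, the lowest mean signal that was tested, so the fitted change of -3.52 (adjusted p = 0.0038) does not fix its size. With 32 added to each signal before taking logs the change was -2.14. The log2 change at 1425711_a_at minus that at the first Akt1 probe set was -3.54. This difference had the smallest p that an exact two-sided permutation of 3 against 3 arrays allows, p = 0.1. Where on the transcripts the probes lie was not analysed here.

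Of the 2 subunits of the TSC complex, Tsc2 fell and Tsc1 did not pass the test. TSC2, or tuberin, carries the activity that switches RHEB off, and loss of either subunit in mice is lethal in mid-gestation. Tsc2 had a single probe set (1452105_a_at), with signals of 177.9, 456.2 and 99.1 in exposed pools and 1137.7, 1175.9 and 997.7 in control pools. The control pools were close together, and the exposed pools, all lower, were spread several-fold, with pool 2 the highest. The means were 244.4 ± 187.6 in exposed and 1104 ± 93.8 in control pools (SD, n = 3 each). The log2 change of -2.46 (SE 0.45, 95% interval -3.49 to -1.43, limma adjusted p = 0.0039) makes a 5.50-fold lower geometric mean. Exposed pools 1 and 3, with the lowest Tsc2 signals, were also those with the highest poly-A ratios. With both left out, the remaining exposed pool gave a change of -1.27 (adjusted p = 0.0040), where the lone pool was taken to vary as the controls did. Leaving out 1 pool at a time gave changes of -3.05 to -1.95, with -3.05 without exposed pool 2. With the poly-A ratio as a covariate the change was -0.13 (adjusted p = 0.92).

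TSC1, or hamartin, stabilises TSC2. Its first probe set (1455252_at) had signals of 744.7, 656.7 and 633.0 in exposed pools and 881.0, 912.8 and 766.3 in control pools. The groups did not overlap, but exposed pool 1 and control pool 3 were close. The means were 678.1 ± 58.9 in exposed and 853.4 ± 77.1 in control pools (SD, n = 3 each). The log2 change was -0.33 (95% interval -0.60 to -0.07, adjusted p = 0.055). The call was gained without control pool 3 (adjusted p = 0.037) and with the dimmer 50% of probe sets left out (adjusted p = 0.045). The other Tsc1 probe sets were dim, overlapped between groups, and had log2 changes of -0.0019 (1422043_at, adjusted p = 1.0) and -0.32 (1439989_at, adjusted p = 0.53).

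**Figure D2:**
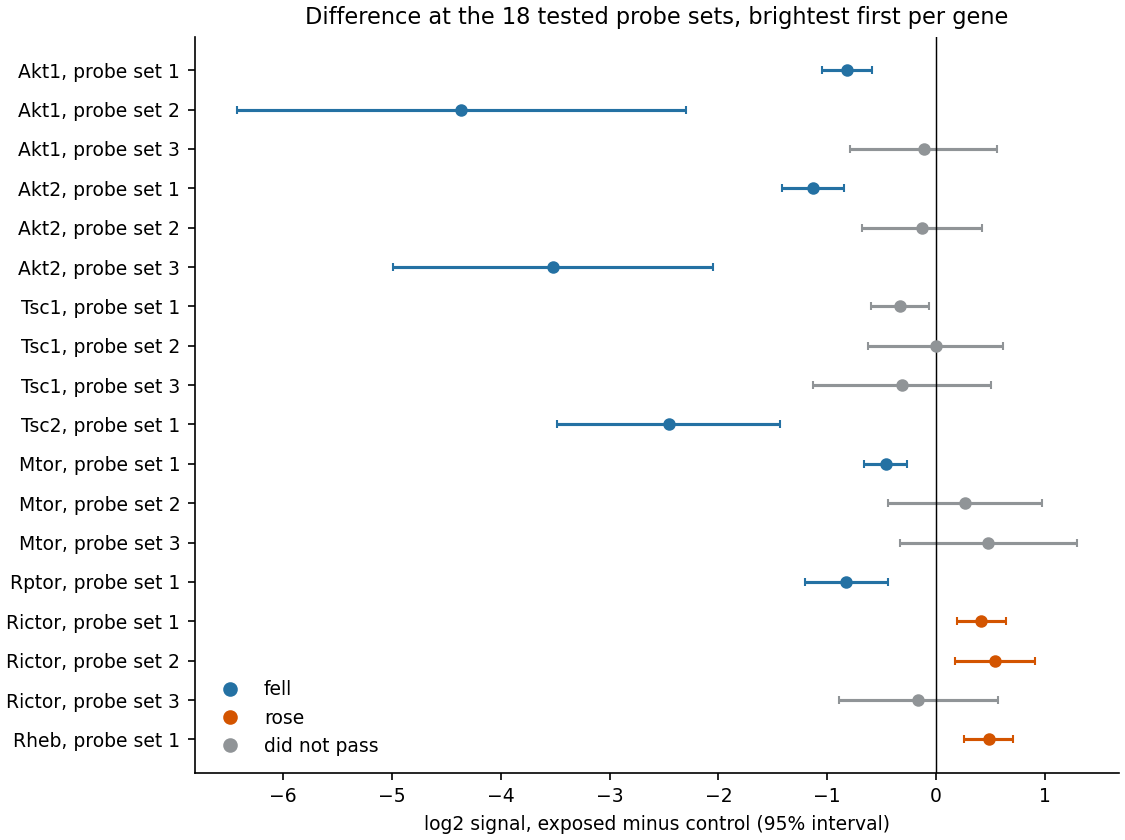
Difference in log2 signal, exposed minus control, at the 18 tested probe sets of the 8 genes (horizontal axis, points with 95% intervals from limma), ordered within each gene by brightness. Blue points fell, orange points rose and grey points did not pass at adjusted p 0.05. The points of one gene lie farthest apart for Akt1 and Akt2, and the widest intervals are those of the dim or variable probe sets of Akt1, Akt2 and Tsc2.

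Rheb rose, against the direction of Tsc2. RHEB, the small GTPase on which the TSC complex acts, binds and activates mTOR on the lysosome surface. Its single probe set (1416636_at) had signals of 7416.7, 7419.3 and 8911.5 in exposed pools and 5482.9, 5398.3 and 6081.2 in control pools. All 3 exposed pools were above all 3 control pools, with exposed pool 3 the highest. The means were 7916 ± 862 in exposed and 5654 ± 372 in control pools (SD, n = 3 each), and the log2 change was 0.48 (SE 0.10, limma adjusted p = 0.0059), a 1.40-fold higher geometric mean. The change was 0.24 with the poly-A ratio as a covariate (adjusted p = 0.54). It was 0.20 after quantile normalization (adjusted p = 0.05, which passed by a narrow margin). That step moved the median change of all genes up, from -0.0003 to 0.14, while the change of Rheb moved down.

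Mtor, the gene of the kinase itself, fell at its brightest probe set alone. At that probe set (1417592_at) the exposed pools had signals of 1157.4, 1271.2 and 1171.2 and the control pools 1710.5, 1660.3 and 1593.9. Both groups were tight and did not overlap. The means were 1200 ± 62.1 in exposed and 1655 ± 58.5 in control pools (SD, n = 3 each), with a log2 change of -0.46 (SE 0.09, limma adjusted p = 0.0044). With each array centred on its median, which moves the median change of all genes by 0.30, the Mtor change was -0.17 (adjusted p = 0.42), and with exposed pools 1 and 3 left out it was -0.38 (adjusted p = 0.057). The exposed pools had 162.1, 123.6 and 159.4 at a dimmer Mtor probe set (1436267_a_at), against 181.6, 129.5 and 78.0 in control pools, with a change of 0.27 (adjusted p = 0.55). At the third (1446185_at) they had 63.8, 48.2 and 67.3, against 56.0, 42.7 and 32 in control pools, with a change of 0.48 (adjusted p = 0.33). The mean over all 3 Mtor probe sets therefore changed by 0.09 (adjusted p = 0.74), opposite in sign to the first.

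The scaffolds of the mTOR complexes moved in opposite directions. RAPTOR brings substrates to mTOR in mTORC1. The 1 tested Rptor probe set (1434619_at) had signals of 385.7, 582.2 and 572.4 in exposed pools and 924.8, 934.8 and 826.6 in control pools. Exposed pool 1 was the lowest, and no exposed pool reached the controls. The means were 513.4 ± 110.7 in exposed and 895.4 ± 59.8 in control pools (SD, n = 3 each), and the log2 change was -0.82 (SE 0.17, limma adjusted p = 0.0059), or -0.44 with the poly-A ratio as a covariate (adjusted p = 0.59). The other 2 Rptor probe sets were too dim to test.

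RICTOR is the scaffold of mTORC2. Its brightest probe set (1435698_at) had signals of 1225.6, 1277.4 and 1318.9 in exposed pools and 1011.3, 869.6 and 989.8 in control pools. All exposed pools were above all control pools. The means were 1274 ± 46.7 in exposed and 956.9 ± 76.4 in control pools (SD, n = 3 each), with a log2 change of 0.42 (SE 0.10, limma adjusted p = 0.012). A second Rictor probe set (1441753_at) had 430.7, 415.3 and 545.1 in exposed pools and 281.7, 307.0 and 366.9 in control pools. It rose too, by 0.54 (SE 0.16, adjusted p = 0.029), a call that was lost without control pool 1 or 2 and without exposed pool 1 or 3. The third (1453775_at) had 88.4, 96.8 and 126.1 in exposed pools and 158.7, 131.5 and 73.0 in control pools, overlapped, and changed by -0.17 (adjusted p = 0.72). Without control pool 2 the rise of the brightest probe set was 0.35 and did not pass (adjusted p = 0.059). With exposed pools 1 and 3 left out it was 0.42 (adjusted p = 0.083), with the poly-A ratio as a covariate 0.38 (adjusted p = 0.42), and with the mean over all 3 tested probe sets 0.26 (adjusted p = 0.16).

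Differences between partners were read within each array, so that a shift common to a whole array drops out. A shift that differs between probe sets does not, and the pairs were not fitted with the poly-A ratio. With that ratio as a covariate the single changes were -0.13 for Tsc2 and -0.31 for Tsc1, so Tsc2 no longer fell more than Tsc1. The single changes were -0.44 for Rptor and 0.38 for Rictor. They were -0.28 for Mtor and 0.24 for Rheb, and -0.47 for Akt1 and -0.83 for Akt2. The difference of a pair of probe sets within an array has no meaning of its own, since probes bind with different strength, but it can be compared between arrays. Log2 Tsc2 minus log2 Tsc1 was -2.07, -0.53 and -2.68 in exposed pools and 0.37, 0.37 and 0.38 in control pools, a difference of -2.13. The control pools were almost identical by this measure, and exposed pool 2 was nearest to them, with a difference of -0.90 when it was the only exposed pool. Log2 Rptor minus log2 Rictor was -1.67, -1.13 and -1.20 in exposed pools and -0.13, 0.10 and -0.26 in control pools, a difference of -1.24. Log2 Mtor minus log2 Rheb was -2.68, -2.55 and -2.93 in exposed pools and -1.68, -1.70 and -1.93 in control pools, a difference of -0.95. Log2 Akt1 minus log2 Akt2 was 1.64, 1.82 and 1.82 in exposed pools and 1.33, 1.47 and 1.54 in control pools, a difference of 0.31 whose sign turned to -0.69 without probe sets that may bind several transcripts and to -0.17 with the mean over probe sets. In each of these 4 pairs the groups did not overlap, and each exact two-sided permutation test gave p = 0.1, the smallest that 3 against 3 arrays allow, or 0.1 after Benjamini-Hochberg adjustment over the 4. How often pairs of other genes separate the groups was not computed. Of all single tested probe sets, 28.0% were lower and 21.9% higher in every exposed pool than in every control pool, so such separation was common.

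**Figure D3:**
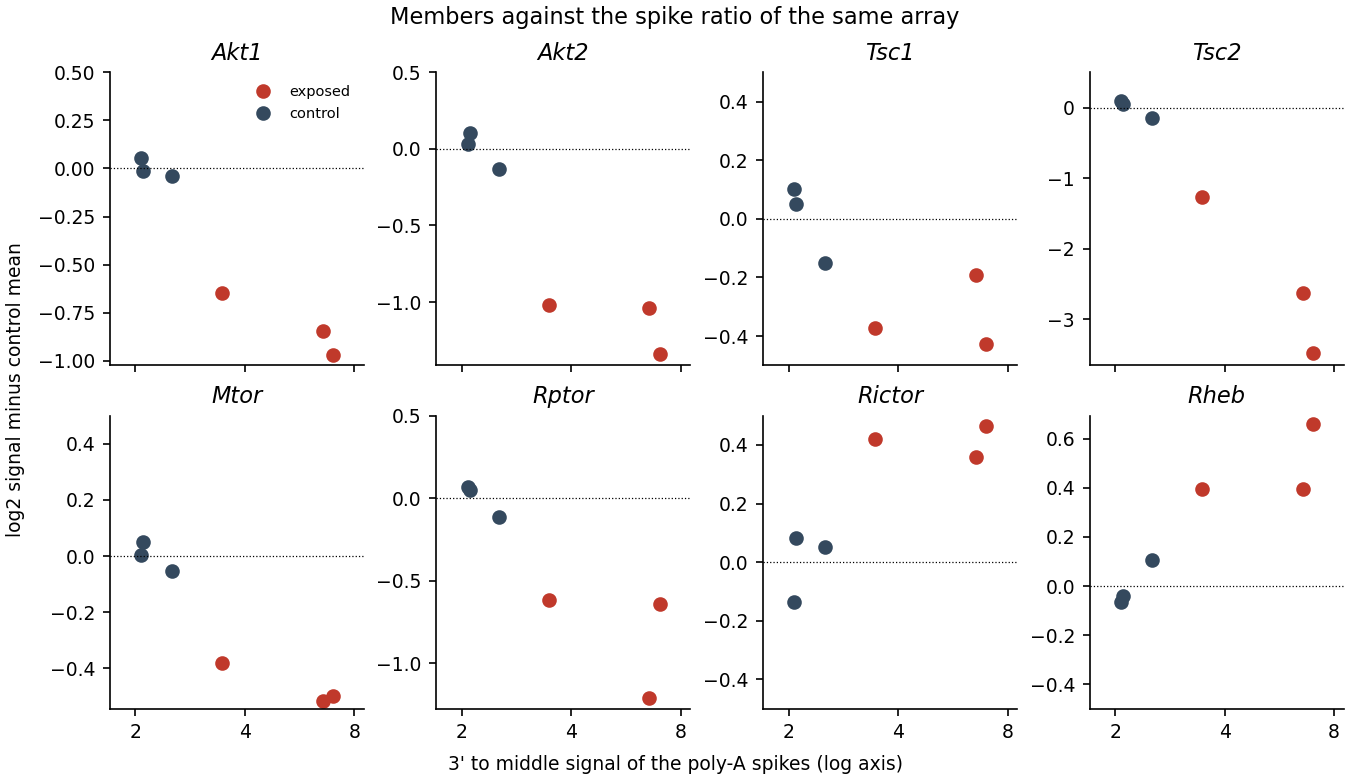
Log2 signal of each of the 8 genes minus its control mean (vertical axis) against the ratio of 3' to middle signal of the poly-A control probe sets on the same array (horizontal log axis), with 1 point per pool, 3 exposed and 3 control. The exposed pools lie to the right of the control pools in every panel, and for Tsc2 the exposed pools with ratios of 6.56 and 7.00 lie below the exposed pool with a ratio of 3.47.

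**Figure D4:**
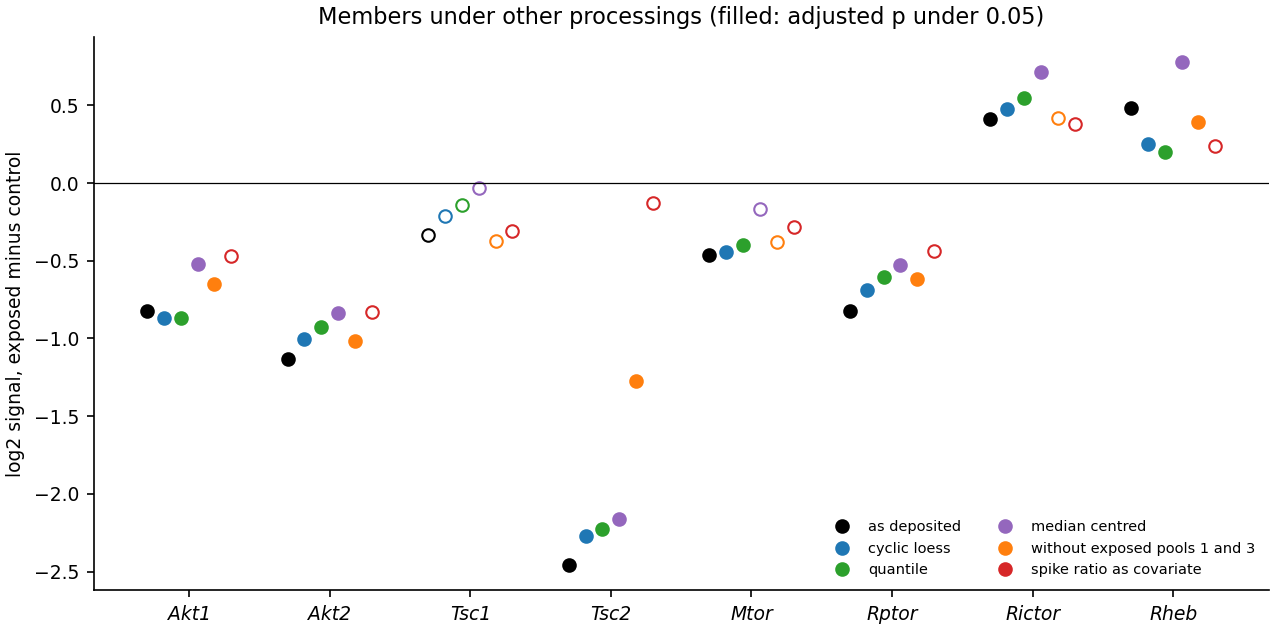
Log2 change, exposed minus control, of each of the 8 genes at its first probe set under 6 processings (filled points have an adjusted p under 0.05). With the covariate no point is filled, and the change of Tsc2 is -0.13 in place of -2.46, while the sign of each gene is the same in all 6.

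The other genes of the pathway were read from lists of 95 genes in 7 roles, of which 88 were measured. Of these 23 fell (26.1%, against 19.9% of all genes) and 14 rose (15.9%, against 17.6% of all genes), with a median log2 change of -0.00, against -0.0003 over all genes. With arrays centred on their medians 11 fell and 23 rose. With the poly-A ratio as a covariate, 22 of the 37 called genes had a change more than 1.5 times smaller, among them 1 whose sign turned, and 15 kept their change within 1.5 times. Among regulators of PI3-kinase and Akt, 6 of 11 fell and 1 rose, with a median of -0.52. Among the energy and stress inputs to TSC, 4 of 15 fell and 2 rose, with a median of 0.02. Of the partners in mTORC1 and mTORC2, 3 of 9 fell and 0 rose in limma (0 higher among these at an unadjusted p under 0.05), with a median of -0.24.

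**Figure D5:**
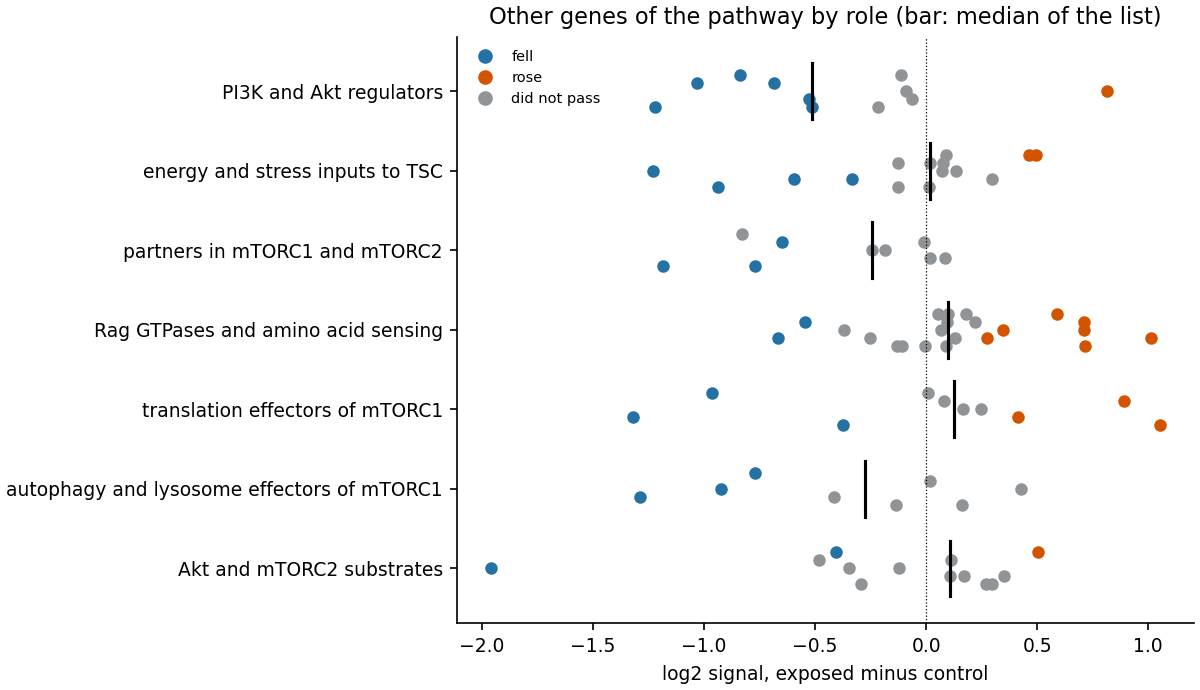
Log2 change, exposed minus control, of the 88 other measured genes of the pathway (horizontal axis), with 1 point per gene, grouped by role, and a black bar at the median of each list. Blue points fell, orange points rose and grey points did not pass. The PI3K and Akt regulators have the lowest median, -0.52, and 7 orange points lie in the list of Rag GTPases and amino acid sensing.

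Upstream of Akt, Inppl1, which encodes the lipid phosphatase SHIP2, had signals of 528.9 ± 18.9 in exposed and 1243 ± 206.6 in control pools (SD, n = 3 each), a fall of 1.22 on the log2 scale (limma adjusted p = 6.0e-04). Phlpp1, a phosphatase that removes an activating phosphate from Akt, fell by 1.03, with 497.5 ± 51.7 in exposed and 1016 ± 54.0 in control pools (adjusted p = 6.7e-04). Irs1, an adaptor of the insulin receptor, fell by 0.53 (adjusted p = 0.0080), as did the regulatory subunits Pik3r1, Pik3r2 and Pik3r3 of PI3-kinase, by 0.69, 0.84 and 0.52. The changes with the poly-A ratio as a covariate were 0.16 for Pik3r1, -0.43 for Pik3r2, -0.30 for Pik3r3 and -0.27 for Irs1, and -0.99 for Inppl1 and -0.75 for Phlpp1. The gene that rose was Pik3cd, a catalytic subunit best known from white blood cells, with 968.3 ± 189.8 in exposed and 543.6 ± 45.7 in control pools (log2 change 0.82, adjusted p = 0.0046, or 0.24 with the covariate). The list thus held falls among genes that pass the signal on and among genes that oppose it.

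Among the inputs to TSC, Stk11, which encodes the kinase LKB1, averaged 433.3 ± 119.3 in exposed and 992.7 ± 28.7 in control pools (SD, n = 3 each), a log2 change of -1.23 (adjusted p = 0.0015). Ddit4, or REDD1, a stress-induced inhibitor of mTORC1 that acts through TSC, averaged 1561 ± 84.1 in exposed and 2354 ± 79.0 in control pools (log2 change -0.59, adjusted p = 0.0014). The study's other experiment, on single embryos, some of them malformed, lists Ddit4 as higher in exposed embryos, though not by both of its tests. Tbc1d7, the further subunit of the TSC complex, rose by 0.49 (adjusted p = 0.0086), with 886.7 ± 15.9 in exposed and 632.0 ± 64.6 in control pools. Sestrins moved both ways. Sesn1 rose by 0.46 (adjusted p = 0.0090), read at a probe set that may bind several transcripts. Sesn2 fell by 0.94 (adjusted p = 0.031) and Sesn3 by 0.33 (adjusted p = 0.013). The covariate fit gave a change of -0.42 for Stk11 (adjusted p = 0.40) and -0.20 for Sesn2 (adjusted p = 0.91), and of -0.58 for Ddit4 (adjusted p = 0.14). It gave 0.35 for Sesn1 (adjusted p = 0.48), -0.34 for Sesn3 (adjusted p = 0.35) and 0.38 for Tbc1d7 (adjusted p = 0.48).

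In the mTOR complexes, Akt1s1, or PRAS40, an Akt substrate that holds mTORC1 back, averaged 623.3 ± 151.1 in exposed and 1395 ± 170.2 in control pools (SD, n = 3 each), a log2 change of -1.18 (adjusted p = 0.0018). Mlst8, a subunit of both complexes, fell by 0.65 (adjusted p = 0.011) and Prr5l, a partner of mTORC2, by 0.77 (adjusted p = 0.0094). Mapkap1, a core subunit of mTORC2 known as SIN1, had a log2 change of -0.24 (adjusted p = 0.16) and Deptor, an inhibitor of mTOR, of 0.08 (adjusted p = 0.80). Once the poly-A ratio was a covariate, Akt1s1 changed by -0.42 (adjusted p = 0.47), Mlst8 by -0.42 (adjusted p = 0.60) and Prr5l by -0.16 (adjusted p = 0.86).

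Of the Rag GTPases and amino acid sensors, 7 of 22 rose and 2 fell, with a median of 0.10. These are 31.8% and 9.09%, against 17.6% and 19.9% of all genes. All 5 genes of the Ragulator, the lysosomal scaffold of the Rag GTPases, rose. Lamtor1 had signals of 12183.4, 8997.3 and 12973.9 in exposed pools, against 5822.0, 5144.6 and 5758.2 in control pools (log2 change 1.01, adjusted p = 0.0012). Exposed pool 2 was the lowest of the exposed pools and still above all controls. Lamtor2 rose by 0.71 (adjusted p = 7.8e-04), Lamtor3 by 0.71, Lamtor4 by 0.59 and Lamtor5 by 0.71. In the fit with the poly-A ratio, Lamtor1 changed by 0.39 (adjusted p = 0.21), Lamtor2 by 0.66 (adjusted p = 0.10), Lamtor3 by 0.42, Lamtor4 by 0.65 and Lamtor5 by 0.18 (adjusted p = 0.59). The fallen genes were Castor2, related to the arginine sensor CASTOR1, with a log2 change of -0.67 (adjusted p = 0.011), and Nprl3, a subunit of the GATOR1 brake on the Rag GTPases, with -0.55 (adjusted p = 0.020). With the covariate these were -0.39 (adjusted p = 0.64) for Castor2 and -0.0074 (adjusted p = 0.99) for Nprl3.

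Of the translation effectors of mTORC1, 3 of 10 fell and 3 rose, with a median of 0.12. Each is 30.0%, against 19.9% fallen and 17.6% risen of all genes. Eif4ebp1 and Eif4ebp2, whose proteins restrain cap-dependent translation until mTORC1 phosphorylates them, moved in opposite directions. Eif4ebp1 averaged 4811 ± 827 in exposed and 2299 ± 219 in control pools (SD, n = 3 each), a rise of 1.05 (adjusted p = 9.4e-04), read at a probe set that may bind several transcripts. Eif4ebp2 had signals of 1297.4, 1093.9 and 1153.0 in exposed pools and 2956.8, 3071.3 and 2809.5 in control pools. The groups were far apart, with a log2 change of -1.32 (adjusted p = 1.8e-04). Of the 88 measured genes it was the only one that passed with the poly-A ratio as a covariate, with a change of -1.47 (adjusted p = 0.015). Rps6, a ribosomal protein and target of S6 kinase, rose by 0.89 (adjusted p = 9.5e-04), and Eef2, the elongation factor, fell by 0.38 (adjusted p = 0.0063). With the covariate the changes of Eif4ebp1, Rps6 and Eef2 were 0.49, 0.43 and -0.16.

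Of the autophagy and lysosome effectors 3 of 8 fell and 0 rose in limma (1 higher among these at an unadjusted p under 0.05), with a median of -0.27. The fallen share is 37.5%, against 19.9% of all genes, of which 17.6% rose. Ulk1, the kinase that starts autophagy when mTORC1 is off, averaged 577.4 ± 73.3 in exposed and 1405 ± 35.1 in control pools (SD, n = 3 each), a log2 change of -1.29 (adjusted p = 3.1e-04). Its relative Ulk2 fell by 0.93 (adjusted p = 7.7e-04), and Tfe3, a transcription factor of lysosomal genes, by 0.77 (adjusted p = 0.0017). Of the substrates of Akt and mTORC2, 2 of 13 fell and 1 rose, with a median of 0.11. These are 15.4% and 7.69%, both under the shares over all genes, 19.9% and 17.6%. Tbc1d4, or AS160, which controls the movement of glucose transporters to the cell surface, had signals of 89.5, 115.0 and 116.5 in exposed pools and 426.7, 419.0 and 395.3 in control pools. Its log2 change of -1.96 (adjusted p = 2.7e-04) left a wide gap between the groups. Foxo4, a transcription factor that Akt keeps out of the nucleus, fell by 0.41 (adjusted p = 0.024), and Prkca rose by 0.50 (adjusted p = 0.039). With the poly-A ratio as a covariate none of these genes passed. Ulk1 changed by -1.06 (adjusted p = 0.067), Ulk2 by -0.60 (adjusted p = 0.18) and Tfe3 by -0.66 (adjusted p = 0.23). Tbc1d4 changed by -1.75 (adjusted p = 0.061), Foxo4 by -0.51 (adjusted p = 0.37) and Prkca by 0.44 (adjusted p = 0.62).

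The genes whose signals over the 6 arrays were most like those of Tsc2 and Rheb were taken by Pearson's r of log2 signals among 13189 named genes. Closest to Tsc2 were Ddah2 (r = 0.9994), Foxm1 (r = 0.9984) and Mtss1 (r = 0.9976). Ddah2, an enzyme that breaks down methylated arginine, had signals of 2697.8, 3126.4 and 2453.9 in exposed pools and 3533.6, 3565.4 and 3498.4 in control pools. As for Tsc2, exposed pool 2 was the highest of the exposed pools and pool 3 the lowest. Of the exposed arrays, that of pool 2 had the lowest poly-A ratio and that of pool 3 the highest. Closest to Rheb were Mrpl43 (r = 0.9975), Hsd17b4 (r = 0.9972) and Ccng1 (r = 0.9968). Mrpl43, a mitochondrial ribosomal protein, had signals of 2939.2, 3007.1 and 3456.5 in exposed pools and 2280.2, 2274.3 and 2560.2 in control pools, again highest in pool 3 of each group. A high r is common with 6 arrays in separate groups, and 800 genes had an r above 0.95 with Tsc2 and 723 with Rheb. How many genes came near the values of those named here was not counted.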

How the data were processed

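RNA of 6 pools was labelled by the authors with a one-cycle protocol and read on Affymetrix Mouse 430 2.0 arrays. The deposited table holds 1 linear signal intensity for each probe set and array. The authors computed it in GCOS and MAS5 (versions not given in the sources used here) and scaled it so that each array has the same mean, 500 without its lowest and highest 2%, so a signal is a share relative to all transcripts of its pool. Detection calls were not used, and 0 columns of other samples were left out.

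These signals were put on a log2 scale as deposited. Leaving out the dimmest 33.3% of probe sets by mean log2 signal, and 64 control probe sets, left 30025. The platform's table gave 1 symbol to 34958 probe sets, several to 932 and none to 9211. The gene number of 34754 was found in the RefSeq table of GRCm38.p6, which changed 0 symbols, and 0 probe sets named one of the 8 genes among several symbols. The groups' difference was fitted by lmFit and eBayes with a trend (limma 3.58.1, R 4.3.3), adjusted by Benjamini-Hochberg over all 30025, after a test on simulated data. Each array is 1 pool, so p-values rest on the spread between these pools, and eBayes draws each variance toward a trend over all tested probe sets. The number of arrays limits the precision.

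Each gene was read at its brightest tested probe set over all arrays. Of the other pathway lists, up to 2 fallen and 2 risen genes with the smallest adjusted p were named, plus Ddit4 and the 3 genes most like Tsc2 and Rheb, clone names left out. Sestrins, Irs1, the Pik3r genes, Mlst8, Mapkap1, Deptor, Lamtor3, Lamtor4, Lamtor5 and Tfe3 were named after their values were seen. The 8 genes and the lists were chosen with earlier results of these data known. Some genes that the rule names are not reported here. Alternatives were other normalizations, filters, fold limits, tests, probe set choices and left-out arrays.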

Additional observations from a re-analysis of the deposited data

How the results depend on the processing

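Every change of the 8 genes at its first probe set kept its sign under other normalizations, filters and left-out arrays. The sign turned for Mtor alone, to 0.0936 with the mean over its probe sets. Among the probe sets of the 8 genes, 7 fell and 3 rose. With a limit of 2-fold 4 fell and 0 rose, and with 1.5-fold 0 rose. A Welch t-test on the log2 signals of the same tested probe sets gave 6 lower and 3 higher at an unadjusted p under 0.05. After Benjamini-Hochberg adjustment it gave 0 and 0, and 333 lower and 81 higher over all tested probe sets. The study joined a Welch test in GeneSpring with Cyber-T, on probe sets chosen by detection calls, so its own calls were not repeated here. With the poly-A ratio as a covariate in limma 0 fell and 0 rose (2 and 0 unadjusted), and without exposed pools 1 and 3, 1 rose. Leaving out 1 pool at a time gave 7 to 8 lower and 1 to 3 higher, with 1 higher without control pool 2.

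Of the other pathway genes 23 fell and 14 rose. With a limit of 2-fold 7 fell and 2 rose, and with 1.5-fold 8 rose. With arrays centred on their medians 11 fell and 23 rose. The same Welch t-test gave 24 lower and 16 higher unadjusted, and 1 and 1 after adjustment (Eif4ebp2 and Lamtor2). With the covariate 1 fell and 0 rose (11 and 8 unadjusted in limma), and without exposed pools 1 and 3, 14 fell and 9 rose. Leaving out 1 pool at a time gave 16 to 26 lower and 10 to 18 higher. Over all tested probe sets, 60.3% of the calls were lower as deposited, 34.4% after median centring, 45.4% after quantile and 52.5% after cyclic loess normalization. The cause of these shifts was not tested.

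Akt1 minus Akt2 was -0.69 without probe sets that may bind several transcripts and -0.17 with the mean over probe sets, against 0.31. Leaving out 1 pool at a time gave -2.74 to -1.67 for Tsc2 minus Tsc1, 0.25 to 0.37 for Akt1 minus Akt2, -1.34 to -1.07 for Rptor minus Rictor and -1.03 to -0.84 for Mtor minus Rheb, and Mtor minus Rheb was -0.60 after quantile normalization and -0.39 with the mean over probe sets. With the poly-A ratio as a covariate, the single changes were -0.13 for Tsc2 and -0.31 for Tsc1, the reverse of their order without it. With a replicate block 7 probe sets of the 8 genes fell and 3 rose. Deviations of same-numbered pools correlated at 4.9e-05, 0.076 and 0.118, so the replicate numbers were not taken as pairs. The mean over probe sets gives no count of probe sets. Dim probe sets, with signals near background, have the least certain changes.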
